A study of Rattus norvegicus with 6 samples.

Results

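The thick ascending limb is the stretch of the nephron that takes up salt from the urine without letting water follow. Its cells carry sodium, potassium and chloride in through the cotransporter Slc12a1, return potassium to the urine through the channel Kcnj1 and pass chloride to the blood side through channels that need the subunit Bsnd. Hormones and prostaglandins set the rate through cyclic AMP, and the same cells secrete uromodulin, the product of Umod and the most abundant protein of normal urine. The salt transport and marker genes examined were Umod, Slc12a1, Kcnj1, Bsnd, Ptger3, Egf, Ppp1r1a and Kcnj10, with claudins left out. They were taken by their symbols, as all probe sets that the array annotation assigns to exactly 1 of these 8 genes. This gave 10 of the 31042 probe sets tested, 2 each for Ptger3 and Ppp1r1a and 1 for each of the other genes.

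Kidney RNA came from 6 male rats, with an Affymetrix Rat Expression Array 230 2.0 for each animal. The congenic group was 3 S.LEW(10)x12x2x3x5 rats, which by the strain name carry Lewis (LEW) chromosome 10 segments on the Dahl S background, and the control group was 3 Dahl salt-sensitive (S) rats. All rats shared a birth date, were weaned at 30 days, ate a low-salt diet (0.3%) and were killed at 53 days. Each cage held a rat of either strain. Whether the rat numbers of the labels mark cages is not stated, and the main comparison did not pair rats by cage. Where the LEW segments begin and end was not analysed here, and by the rat gene table none of the 8 genes lies on chromosome 10: they are on chromosomes 1 (Umod), 2 (Egf and Ptger3), 3 (Slc12a1), 5 (Bsnd), 7 (Ppp1r1a), 8 (Kcnj1) and 13 (Kcnj10). Values are log2 probe set intensities, on which a difference of 1 is a doubling. A level of one probe set cannot be set against that of another, because each has its own probes. In RNA from kidney tissue, where cell types are mixed, fewer cells of a type and less RNA per cell cannot be told apart.

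Array medians lay between 7.47 and 7.50, and the arrays correlated at 0.985 to 0.998. The precision is limited by the number of arrays, 3 per group. RNA quality was read from the beta-actin and Gapdh controls of the array, as the mean of their 3′ signal minus their 5′ signal, a difference that widens in degraded RNA. It was 1.26, 1.01 and 1.08 in congenic rats 1, 2 and 3, against 1.56, 2.10 and 1.70 in S rats 1, 2 and 3 (difference -0.67, exact permutation test, two-sided p = 0.1, the lowest p this design can reach). The groups did not overlap, and the widest value was that of S rat 2.

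Of the 10 probe sets 3 passed an adjusted p of 0.05 in limma, 1 higher and 2 lower in congenic kidneys. Over all probe sets 6.00% passed, 3.47% higher and 2.53% lower. The changes were at Ppp1r1a, the inhibitor of protein phosphatase 1, lower at both of its probe sets, and at 1 of the 2 probe sets of Ptger3, the prostaglandin E2 receptor EP3, which was higher. Umod, Slc12a1 and Egf had log2 changes between -0.11 and -0.10, and none of them passed. The median log2 change of the 10 probe sets was -0.10, against -0.02 over all probe sets. The groups did not overlap at 7 of the 10 probe sets, 5 lower and 2 higher in congenic rats, as was so for 31.2% of all probe sets (18.4% lower and 12.7% higher). The count of 3 dropped to 0 when S rat 3, congenic rat 2 or congenic rat 3 was left out. It also dropped to 0 when the 3′ minus 5′ difference entered the model as a term. Without S rat 1 it was 5, and without congenic rat 1 it was 2. The count over all probe sets, 1862 with every rat kept, moved the same way. Dropping S rat 3 or congenic rat 2 took it to 0, dropping congenic rat 3 to 8 and the term to 0. Dropping S rat 1 took it to 4752, and dropping congenic rat 1 to 350. An unadjusted p under 0.05 was left at 5 of the 10 probe sets without S rat 3, congenic rat 2 or congenic rat 3. It was left at 2 with the term, against 6 with all rats. Of all 31042 probe sets, 7895 had such a p in the main comparison and 2292 with the term. Dropping S rat 3 left 6968 of them, dropping congenic rat 2 left 5575 and dropping congenic rat 3 left 5359.

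**Figure D1:**
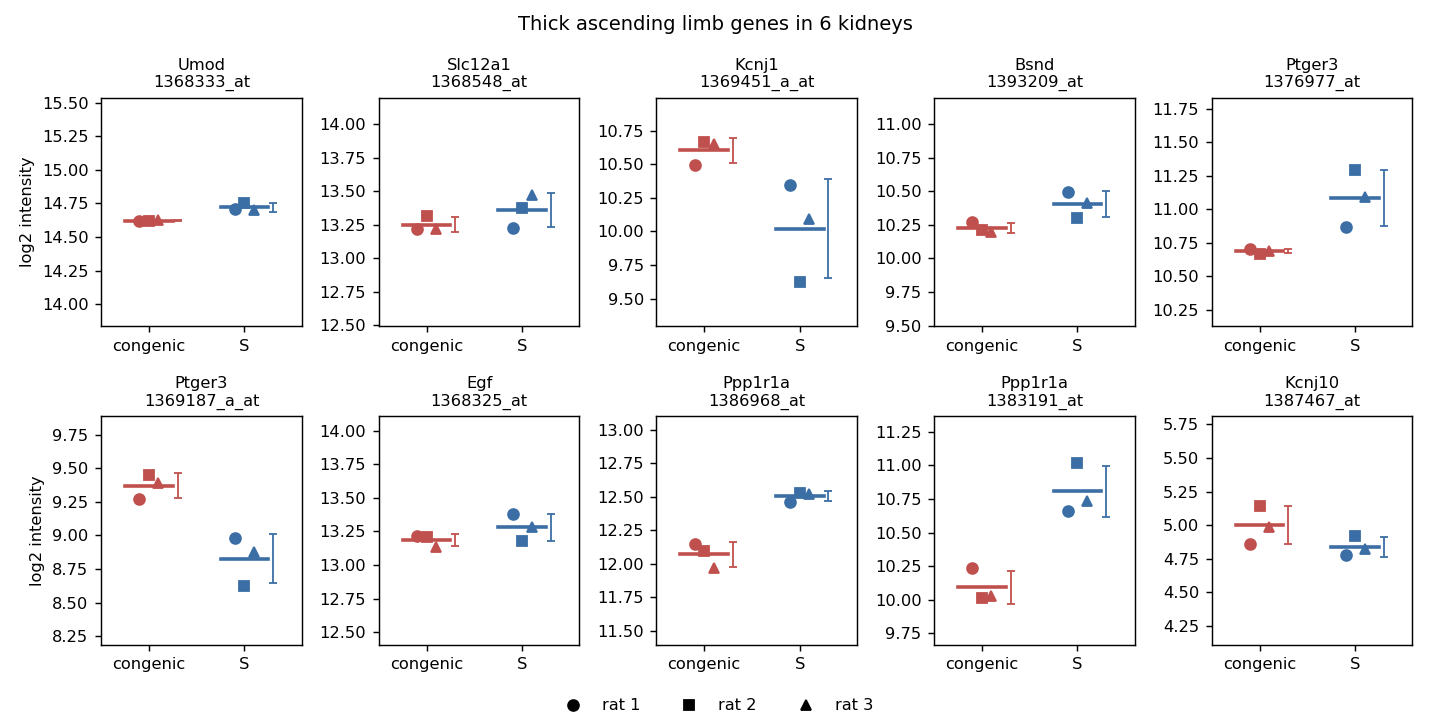
Log2 intensity of the 10 probe sets in congenic (left, red) and S kidneys (right, blue), with 1 symbol per rat, a line at the group mean and a bar of 1 SD (n = 3 each). All panels span the same number of log2 units on their own range. The congenic points of Umod, Bsnd, Ppp1r1a and Ptger3 1376977_at lie below all S points, and those of Kcnj1 and Ptger3 1369187_a_at above them.

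Among the transporters, Slc12a1 is the target of loop diuretics. Slc12a1 (1368548_at) was at 13.22, 13.32 and 13.21 in congenic rats 1, 2 and 3, against 13.23, 13.37 and 13.47 in S rats 1, 2 and 3. The groups overlapped, with congenic rat 2 above S rat 1. The log2 change of Slc12a1 was -0.11 ± 0.08 (SE), with a 95% interval from -0.29 to 0.07 (limma, adjusted p = 0.45), which missed the threshold for a call. On the linear scale that interval runs from 0.82-fold to 1.05-fold. Single S rats moved the change of Slc12a1, to -0.05 without S rat 3 and -0.17 without S rat 1, and it was -0.06 with the RNA quality term.

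Kcnj1 encodes ROMK, the apical channel that gives back the potassium the cotransporter needs. Kcnj1 (1369451_a_at) was at 10.50, 10.67 and 10.65 in congenic rats 1, 2 and 3, against 10.35, 9.62 and 10.09 in S rats 1, 2 and 3. All congenic rats were above all S rats, and S rat 2 stood lowest. The SD was 0.09 in congenic and 0.37 in S rats. Kcnj1 had a log2 change of 0.58 ± 0.16 (SE), 1.50-fold, which missed the threshold (limma, adjusted p = 0.0671). The change passed without S rat 1 (0.75, adjusted p = 0.00778), was 0.38 without S rat 2 (adjusted p = 0.0744) and turned to -0.23 ± 0.14 (SE, adjusted p = 0.81) with the RNA quality term.

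Kcnj1 is known in the rat for transcripts that differ at their 5′ ends, and the RefSeq table of the GRCr8 assembly gives it 2 starts. Both promoters are shown because the probe set does not say which start was used; how its probes match the transcripts was not analysed here. Each runs from 250 bases before a start to 50 after it on the plus strand of chromosome 8. Capitals mark the motifs TATAAA (searched on the gene's strand) and CCAAT (searched on both strands, so also ATTGG), which do not overlap in these promoters. The first is chr8:39037742-39038041 and the second chr8:39061391-39061690.
Kcnj1, start 1: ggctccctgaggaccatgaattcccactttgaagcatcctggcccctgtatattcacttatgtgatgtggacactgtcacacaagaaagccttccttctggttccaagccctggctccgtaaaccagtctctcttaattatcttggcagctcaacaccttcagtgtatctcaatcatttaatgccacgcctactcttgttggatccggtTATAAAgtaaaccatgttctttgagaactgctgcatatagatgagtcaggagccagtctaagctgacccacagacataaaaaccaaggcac
Kcnj1, start 2: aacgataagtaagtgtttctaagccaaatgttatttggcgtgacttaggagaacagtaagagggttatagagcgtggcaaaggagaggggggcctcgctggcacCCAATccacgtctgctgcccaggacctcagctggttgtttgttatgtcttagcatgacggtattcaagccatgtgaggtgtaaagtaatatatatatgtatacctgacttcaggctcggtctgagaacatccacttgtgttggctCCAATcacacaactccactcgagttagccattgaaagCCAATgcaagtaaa
The first has 1 TATAAA, which begins 41 bases before the start, and the second has 3 CCAAT. Counted as bases before the start, these begin at 146, 1 and -36, so the last lies after it. Neither holds the other motif. Among the 33469 rat promoters listed, the first motif is in 8.8% and the second, on either strand, in 37.5%. The half-site AAGGTCA of estrogen-related receptors (4.61% of all promoters) and the half-site GTTAAT of HNF1 factors (7.45%) were searched on both strands too and are in none of the 9 promoters listed for 7 of the 8 genes.

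Bsnd encodes barttin, the subunit that chloride channels of the blood-facing membrane need. Bsnd (1393209_at) was at 10.27, 10.21 and 10.20 in congenic rats 1, 2 and 3, against 10.49, 10.31 and 10.41 in S rats 1, 2 and 3. All congenic rats were below all S rats, with congenic rat 1 and S rat 2 the closest pair. The log2 change of Bsnd was -0.18 ± 0.07 (SE), which missed the threshold (limma, adjusted p = 0.16), with a 95% interval from -0.34 to -0.02. With the RNA quality term it was -0.33 ± 0.13 (SE, adjusted p = 0.66).

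Kcnj10 encodes Kir4.1, a potassium channel of the blood-facing membrane that is best known from the distal convoluted tubule. Kcnj10 (1387467_at) was at 4.86, 5.14 and 4.99 in congenic rats 1, 2 and 3, against 4.78, 4.92 and 4.82 in S rats 1, 2 and 3. It lay under the lower quartile of all 6 arrays, and whether the transcript was present was not tested, since no detection call was used. The groups overlapped, and the change was 0.16 ± 0.09 (SE, limma, adjusted p = 0.30), or 0.09 without congenic rat 2.

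The 2 secreted products were both bright. Umod (1368333_at) was at 14.62, 14.62 and 14.62 in congenic rats 1, 2 and 3, against 14.71, 14.76 and 14.70 in S rats 1, 2 and 3. The congenic rats were nearly equal and all below the S rats. The log2 change of Umod was -0.10 ± 0.06 (SE), which missed the threshold (limma, adjusted p = 0.34), with a 95% interval from -0.24 to 0.04, and was -0.04 with the RNA quality term. The highest value in the table is 15.14, and whether the probe set was near its ceiling was not tested.

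Egf, the epidermal growth factor precursor, is made in the thick ascending limb and the distal convoluted tubule and shed into the urine. Egf (1368325_at) was at 13.22, 13.21 and 13.13 in congenic rats 1, 2 and 3, against 13.38, 13.18 and 13.28 in S rats 1, 2 and 3. S rat 2 lay between the congenic values, so the groups overlapped. The log2 change of Egf was -0.10 ± 0.07 (SE), with a 95% interval from -0.26 to 0.07 (limma, adjusted p = 0.47), and -0.27 ± 0.13 (SE, adjusted p = 0.74) with the RNA quality term. It was -0.05 without S rat 1 and -0.15 without S rat 2.

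Ptger3 and Ppp1r1a belong to the cyclic AMP side of salt transport. The EP3 receptor couples to the inhibitory G protein and lowers cyclic AMP when prostaglandin E2 binds, and its transcripts are known to be spliced to different tails. Ptger3 at 1369187_a_at was at 9.27, 9.45 and 9.39 in congenic rats 1, 2 and 3, against 8.98, 8.62 and 8.87 in S rats 1, 2 and 3. All congenic rats were higher, with a log2 change of 0.54 ± 0.10 (SE), 1.46-fold (limma, adjusted p = 0.0283). Ptger3 at 1376977_at was at 10.70, 10.67 and 10.69 in congenic rats 1, 2 and 3, against 10.87, 11.29 and 11.09 in S rats 1, 2 and 3. Here all congenic rats were lower, and the log2 change of -0.40 ± 0.10 (SE) missed the threshold (limma, adjusted p = 0.0568), but passed without S rat 1 (-0.50, adjusted p = 0.00556).

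The 2 probe sets of Ptger3 thus stood on opposite sides of 0. Their difference within an array, 1369187_a_at minus 1376977_at, was -1.43, -1.22 and -1.30 in congenic rats 1, 2 and 3, against -1.89, -2.67 and -2.22 in S rats 1, 2 and 3. It was larger in congenic rats by 0.94 (exact permutation test, two-sided p = 0.1, the lowest possible with 3 rats a group), with no overlap. A difference within an array shows that the probe sets changed unequally, not that either one stayed unchanged. Which transcript end each probe set measures was not analysed here. With the RNA quality term the changes were 0.10 ± 0.12 at 1369187_a_at and 0.01 ± 0.14 at 1376977_at (SE, adjusted p = 0.93 and adjusted p = 1.00 in limma).

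The RefSeq table lists 1 start for Ptger3, and its promoter is shown because the table gives this gene, with its 2 unlike probe sets, no other. It is chr2:249264832-249265131 in GRCr8, on the plus strand, from 250 bases before the start to 50 after it.
Ptger3: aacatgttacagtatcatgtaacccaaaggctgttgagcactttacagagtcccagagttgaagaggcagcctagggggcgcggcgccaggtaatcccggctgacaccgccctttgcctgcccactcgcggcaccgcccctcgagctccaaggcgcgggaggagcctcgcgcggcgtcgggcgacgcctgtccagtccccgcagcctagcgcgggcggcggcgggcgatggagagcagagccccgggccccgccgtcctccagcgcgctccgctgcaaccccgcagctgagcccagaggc
It holds none of the 4 motifs, so no letter is in capitals. Its GC content is 69.7%, with 32 CpG, against 46% with 3 CpG in the first Kcnj1 promoter and 46% with 8 CpG in the second.

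Ppp1r1a encodes inhibitor 1, which blocks protein phosphatase 1 once protein kinase A has phosphorylated it. Ppp1r1a at 1386968_at was at 12.15, 12.09 and 11.97 in congenic rats 1, 2 and 3, against 12.46, 12.53 and 12.52 in S rats 1, 2 and 3. Ppp1r1a at 1383191_at was at 10.24, 10.01 and 10.03 in congenic rats 1, 2 and 3, against 10.66, 11.02 and 10.74 in S rats 1, 2 and 3. Both probe sets separated the groups. The log2 change was -0.43 ± 0.07 (SE) at 1386968_at, 1.35-fold lower in congenic rats (limma, adjusted p = 0.0224), and -0.72 ± 0.11 (SE) at 1383191_at, 1.64-fold lower (adjusted p = 0.0202). The gap between the probe sets, 1386968_at minus 1383191_at, was wider in congenic rats by 0.28 (exact permutation test, two-sided p = 0.1, the smallest possible). With the RNA quality term the changes were -0.33 ± 0.14 (SE, adjusted p = 0.67) and -0.23 ± 0.12 (SE, adjusted p = 0.77).

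**Figure D2:**
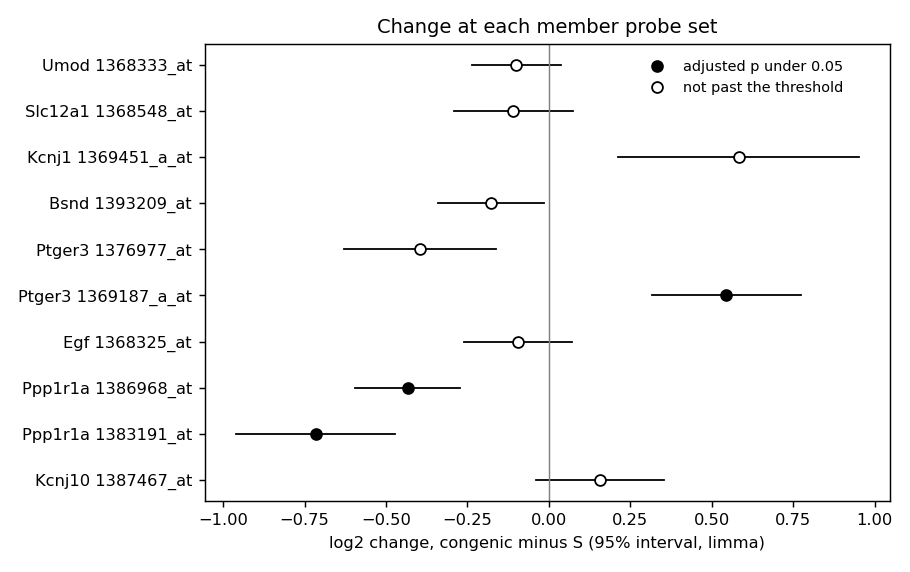
Log2 change (congenic minus S) at each probe set with its 95% interval from limma, n = 3 rats each. Filled points passed an adjusted p of 0.05. Both Ppp1r1a probe sets lie to the left of 0 with intervals clear of it, and those of Ptger3 lie on opposite sides.

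The 3′ minus 5′ difference moved with several of these probe sets inside the groups as well as between them. From the array with the smallest difference (congenic rat 2) to the one with the widest (S rat 2), Kcnj1 and Ptger3 1369187_a_at were lower at every step, and Ptger3 1376977_at and Ppp1r1a 1383191_at higher at every step. Such an unbroken order held at 4 of the 10 probe sets, against 4.56% of all probe sets. Since the difference itself separates the groups, only a probe set that separates them too can show it. Umod, Slc12a1, Egf, Bsnd, Kcnj10 and Ppp1r1a 1386968_at did not keep it. With the difference as a term in the model, 8 of the 10 changes kept their sign, 7 were smaller and 3 were larger in size. Since the difference and the strain go together, the part of each in these results cannot be told apart.

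**Figure D3:**
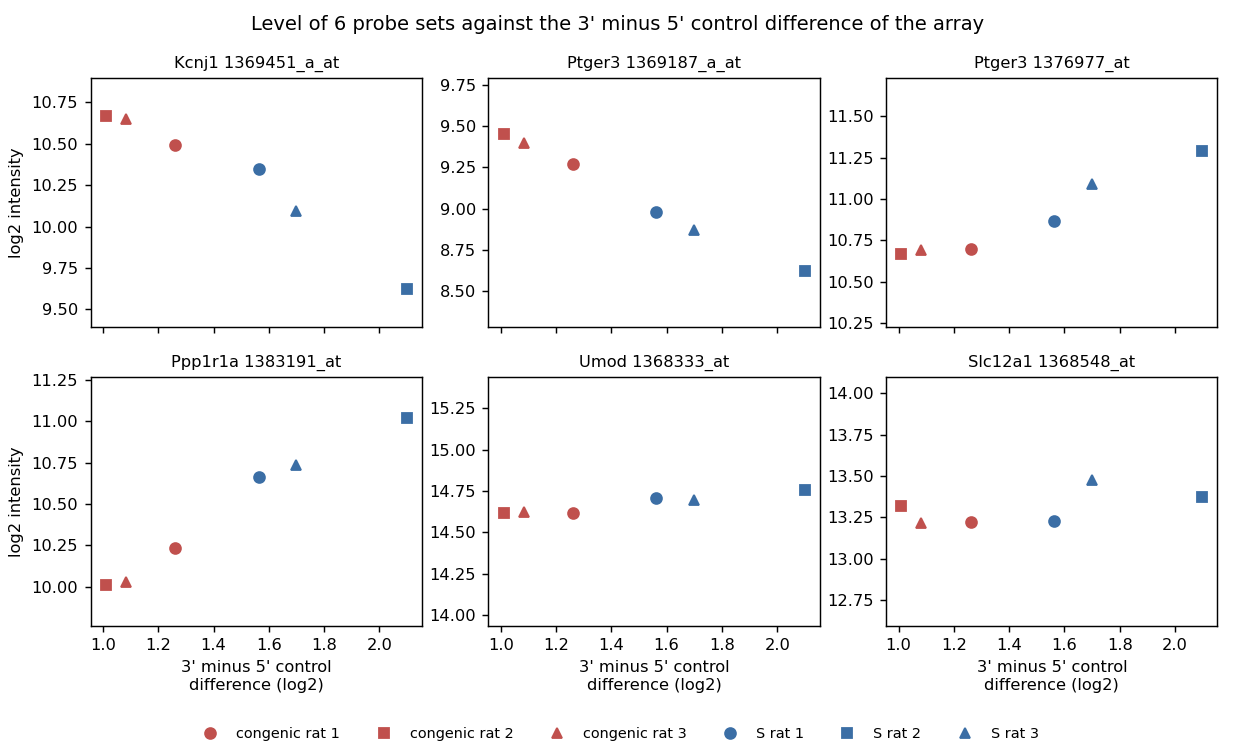
Log2 intensity (vertical axis, the same span in each panel) of 6 probe sets against the 3′ minus 5′ control difference of the array (horizontal axis, log2). Red points are congenic and blue points S rats, 1 point per rat. Kcnj1 and Ptger3 1369187_a_at descend and Ppp1r1a 1383191_at and Ptger3 1376977_at ascend from congenic rat 2 at 1.01 to S rat 2 at 2.10, while Umod and Slc12a1 stay nearly level.

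S rats varied more than congenic rats at 8 of the 10 probe sets, as they did at 64.2% of all probe sets. S rat 2 was the array farthest from the mean of the 6 at 5 of the 10 probe sets, and at 38% of all. Without S rat 2 the same number of the 10 probe sets passed as with it, 1 higher and 2 lower. Of all probe sets 968 passed without it, against 1862 with it. The change of Ptger3 1369187_a_at was then 0.44, against 0.54 with all rats. Ppp1r1a stood at -0.42 at 1386968_at, against -0.43, and at -0.61 at 1383191_at, against -0.72.

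Other genes of thick ascending limb transport and its control were taken from a list of 38, of which 33 had a probe set of 1 symbol. With each gene read at its brightest probe set, 6 of the 33 were lower in congenic rats and 0 higher in limma, where 11 had an unadjusted p under 0.05. Over all genes read this way 4.79% passed, 2.67% lower and 2.12% higher. When only 1 probe set per gene was fitted, 3890 of 14217 genes had an unadjusted p under 0.05 in limma. Of the 33 genes it was again 11. The median log2 change of the 33 genes was -0.03, as it was over all 14217 genes. Casr, the calcium-sensing receptor that curbs salt uptake in this segment, was at 10.67, 10.50 and 10.58 in congenic rats 1, 2 and 3, against 10.96, 11.14 and 10.92 in S rats 1, 2 and 3 (log2 change -0.43 ± 0.08 SE, limma, adjusted p = 0.0312). Stk39, the kinase SPAK that acts on the cotransporter, fell by 0.39 (adjusted p = 0.0360), and Sorl1, a sorting receptor, by 0.34 (adjusted p = 0.0479). Gcgr, the glucagon receptor, fell by 0.42 (adjusted p = 0.0491). The transcription factor genes Esrrg and Irx1 fell by 0.34 (adjusted p = 0.0300) and 0.51 (adjusted p = 0.0426). Gcgr is on chromosome 10, and whether it lies inside a LEW segment was not analysed here.

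The related receptor gene Esrrb stood at -0.31 (adjusted p = 0.0618), and Atp1b1, the beta subunit of the sodium pump, at 0.62 (adjusted p = 0.0721). Dimmer probe sets did not always follow: that of Stk39 stood at 0.24 (adjusted p = 0.0951) and that of Esrrg at 0.16 (adjusted p = 0.44), opposite to the brighter ones. Sorl1 has 7 dimmer probe sets, all below 0, of which none passed in limma. They ran from -0.28 at 1377457_a_at (adjusted p = 0.0671) to -0.02 at 1393933_at (adjusted p = 0.90). Among 22 dimmer probe sets of the list 1 passed, that of Ptges, a prostaglandin E synthase (0.53, adjusted p = 0.0302). The count of 6 dropped to 0 when S rat 3, congenic rat 2 or congenic rat 3 was left out. Without S rat 2 or congenic rat 1 it was 1, and without S rat 1 it was 10. The count over all probe sets, 1862 in the main comparison, fell and rose in the same fits. Dropping S rat 3 or congenic rat 2 took it to 0, and dropping congenic rat 3 to 8. Dropping S rat 2 took it to 968, dropping congenic rat 1 to 350 and dropping S rat 1 to 4752. Under quantile normalization the list count was 3, while 1834 of all probe sets passed. With the RNA quality term both counts were 0, and Casr stood at -0.14, Stk39 at -0.23 and Irx1 at -0.06.

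**Figure D4:**
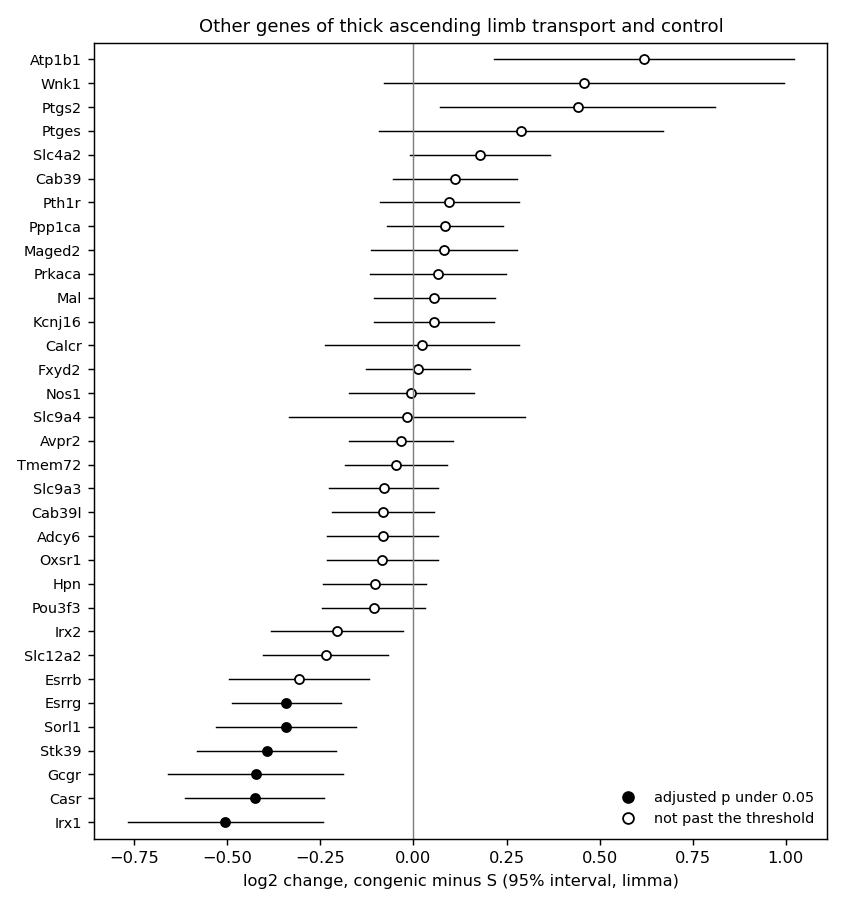
Log2 change (congenic minus S) of the 33 other genes at their brightest probe set, with 95% intervals from limma, n = 3 rats each. Filled points passed an adjusted p of 0.05. The 6 filled points lie at the low end, between -0.51 and -0.34.

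Markers of the segment and of its neighbours were set beside these values. The 5 thick ascending limb markers (Umod, Slc12a1, Cldn16, Cldn19 and Kcnj1) had mean levels per array of 11.51 to 11.59 in congenic and 11.55 to 11.59 in S rats, which overlap. All 5 were well above the lower quartile of the arrays. This mean joins opposite changes, with Kcnj1 (0.58) above 0 and Umod (-0.10), Slc12a1 (-0.11), Cldn19 (-0.14) and Cldn16 below it. Umod, Slc12a1 and Kcnj1 are also among the genes examined, so the mean is no separate measure of the segment. Of the 5 only Cldn16 passed, a claudin of magnesium and calcium uptake, which fell by 0.35 (limma, adjusted p = 0.0340). Thin limb and inner medullary markers averaged 11.16 to 11.23 in congenic and 11.42 to 11.75 in S rats, with no overlap, and 1 of 4 measured, the osmolyte transporter gene Slc5a3, was lower. Proximal tubule markers averaged 12.41 to 12.67 in congenic and 11.79 to 12.23 in S rats, with 2 of 8 higher, namely Slc5a12 and Slc5a2. This mean too joins unlike changes, with a median log2 change of 0.14. Slc5a12 stood at 2.28, Slc5a2 at 1.67, Slc34a1 at 0.28, Slc22a6 at 0.24 and Cubn at 0.04. Miox (-0.01), Kap (-0.03) and Lrp2 (-0.09) lay below 0.

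Distal convoluted tubule markers averaged 9.59 to 9.67 in congenic and 7.91 to 9.77 in S rats, where S rat 2 stood alone at 7.91, and 0 of 4 passed in limma (0 at an unadjusted p under 0.05). Podocyte markers averaged 8.75 to 8.97 in congenic and 6.92 to 9.16 in S rats, again with S rat 2 lowest, and 0 of 3 passed (0 at an unadjusted p under 0.05). Of 6 principal cell markers Aqp4 (-0.59) was lower, and of 4 intercalated cell markers Slc4a1 (-0.28), which is on chromosome 10. The other markers of these lists went both ways. Among principal cell markers Fxyd4 (-0.41) and Aqp2 lay below 0, and Scnn1g (0.29), Scnn1b (0.20) and Aqp3 (0.17) above it. Among intercalated cell markers Rhcg (-0.17) lay below 0, and Slc26a4 (0.67) and Atp6v1g3 above it. The median log2 changes of these lists were 0.02 and -0.05. Slc5a3, Slc5a12, Slc5a2, Aqp4, Slc4a1 and Cldn16 are named here because they passed, after their values were seen. The brightest marker of each list did not pass: beside Umod, these were Kap (-0.03) of the proximal tubule, Calb1 (1.62, with S rat 2 at 9.38) of the distal tubule, Aqp2 (-0.12) of principal and Atp6v1g3 (0.06) of intercalated cells, Aqp1 (-0.05) of the thin limb, Podxl (0.23) of podocytes, Emcn (-0.02) of endothelium and Ptgs2 (0.44) of the macula densa. The part of tissue content in the changes of the salt transport genes was not tested.

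For Kcnj1, Umod and Slc12a1, the probe sets most like each over the 6 arrays were looked up by Pearson's r among 10764 probe sets with 1 symbol and a mean of at least 8, members left out. These are descriptions over 6 arrays that share the RNA quality gradient. Kcnj1 was most like Pank3, Mcam and Ndrg1 (r = 0.999 each), and 1207 probe sets had r above 0.9 with it. Umod was most like Thumpd3 (r = 0.999), Pam16 (r = 0.998) and Tmc4 (r = 0.997), with 1688 above 0.9. Slc12a1 was most like Ccdc71 (r = 0.997), Syt3 (r = 0.991) and Sem1 (r = 0.988), with 39 above 0.9.

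**Figure D5:**
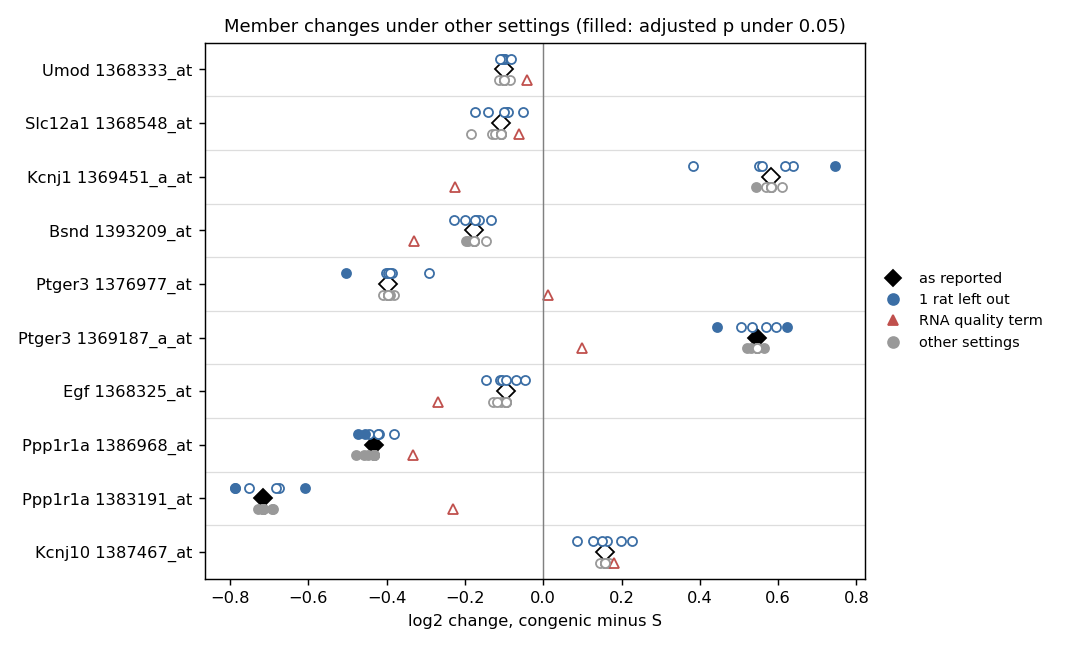
Log2 change (congenic minus S) of each probe set as reported (black diamonds), with 1 rat left out (blue), with the RNA quality term (red triangles) and under the other settings (grey), filled where the adjusted p was under 0.05. Scaling to the 3′ controls is left out, and points of equal value lie on top of each other. The red triangles of Kcnj1 and Ptger3 1376977_at lie across 0 from the black diamonds, and those of Ptger3 1369187_a_at and Ppp1r1a 1383191_at nearer to 0.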

How the data were processed

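Total kidney RNA was hybridised to 1 array per rat, according to the labels. The deposited values are log2 intensities for 31099 probe sets, with a log2 scale judged from the values (3.76 to 15.14) and arrays already comparable. The method that made them is not given in the sources used here. No arrays held identical values. After 57 control probe sets were left out, 31042 were tested. The platform annotation gave 20826 of them 1 symbol, 436 several and 9780 none, and 20758 symbols matched the GRCr8 gene table by Entrez identifier.

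Congenic was compared with S in limma 3.58.1 under R 4.3.3 (linear model with empirical Bayes, two-sided, Benjamini-Hochberg over all probe sets, adjusted p under 0.05, 8.49 degrees of freedom with the prior). For lists, each gene was taken at its brightest probe set. Data were simulated for this comparison on 31042 probe sets, with independent noise of the same SD in both groups at each probe set. There, 10.4% of 67 changes of 0.3, 95.5% of 67 changes of 0.6 and 100% of 66 changes of 1.2 were recovered, with 10 false calls. The simulation had no RNA quality gradient, and in the real data S rats varied more at 64.2% of probe sets, so its rates need not hold there. Python 3.11.15 with matplotlib 3.10.9 drew the figures.

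The members, lists, tests and alternatives were chosen with earlier results of these data known. The rule for named genes took all members, the brightest marker of each segment, and 3 genes most like Umod, Slc12a1 and Kcnj1. Of the list of 38 it took the called genes or, had none been called, those with the smallest p. Esrrb, Atp1b1 and Ptges fall outside this rule and were named after their values were seen. The same holds for segment markers that are neither members nor the brightest of their list. Alternatives covered normalization, dim probe sets, the variance prior, a block for the rat number, weighted arrays, an RNA quality term, 1 probe set per gene and leaving out each rat. Which part of the kidney was taken is not given in the sources used here.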

Additional observations from a re-analysis of the deposited data

How the results depend on the processing

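The rat number as a block left 1 of the 10 probe sets called (Ppp1r1a 1383191_at), 0 of the 33 other genes and 658 of all probe sets, in place of 3, 6 and 1862. The numbers were not shown to pair the rats: deviations of same-numbered rats correlated at -0.01, -0.18 and -0.14 over all probe sets. With the RNA quality term and in an unmoderated test each of these 3 counts was 0. Unadjusted p was under 0.05 at 2 of the 10 probe sets and 2292 of all with the term, and at 6 of the 10 and 6166 of all in the unmoderated test. Array weights gave 6 members, 10 other genes and 6077 probe sets, an intensity trend gave 5 members, and quantile normalization 3 other genes. With 1 probe set per gene 1 member and 666 genes passed. Scaling to the 3′ controls moved the median of all probe sets from -0.02 to -0.36 and gave 7 members, 21 other genes and 21669 probe sets, of which 620 were higher and 21049 lower, against 1078 and 784 without it. The member median was then -0.45, that is -0.08 relative to all, and it was -0.13 under quantile normalization, -0.15 with array weights and -0.14 with the RNA quality term. Leaving out 1 rat gave 0 to 5 members, 0 to 10 other genes, 0 to 4752 probe sets and member medians of -0.12 to -0.10. Signs turned for Kcnj1 (-0.23) and Ptger3 1376977_at (0.013) with the RNA quality term and for Kcnj10 (-0.18) with scaling to the 3′ controls. The causes were not tested. The number of arrays limits the precision, and Kcnj10 lay under the lower quartile of all 6 arrays.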
